A study of Mus musculus with 8 samples.

Results

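The genes described here are 38 genes of the choroid plexus and the ependyma, chosen by name and found in the hippocampal array data as every probe set that names exactly 1 of them. Of the 38 genes, 35 had such a probe set, out of 18193 genes named by the arrays in all, and 32 of these could be measured. A probe set is a group of short probes against 1 transcript, and it was counted as measured where its values had an SD above 0.01 over the 8 arrays. The probe-level summary that was used draws a probe set without shared probe signal to a constant, so near-equal values of an unmeasured gene say nothing about equal expression. Of the 59 probe sets of these genes 45 were measured, against 3758 of 45037 in the whole data set. Lmx1a, Perp and Trpv4 had only unmeasured probe sets. Mfrp shared its probe set with the adjoining gene C1qtnf5, and no probe set used here names Enpp2 or Prlr.

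RA stands for rosmarinic acid, a plant polyphenol, and not for retinoic acid. All mice were male 3xTg-AD mice, a line with mutant human APP and tau transgenes and a mutant presenilin 1, which develops amyloid and tau pathology. The 4 control arrays came from mice on an AIN-93G diet and the 4 RA arrays from mice on the same diet with 0.5% RA, both for 8 months and up to 10 months of age. All carried the same mutations, so no array shows hippocampus without them. Over all probe sets the arrays correlated with one another at 0.989 to 0.998. It is not settled whether 1 array stands for 1 mouse, since 4 mice a group were profiled but the RNA is described as pooled, and p-values measure only the spread between these arrays.

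The choroid plexus is a folded epithelium in the brain ventricles that secretes cerebrospinal fluid, moving ions, bicarbonate and water across its cells and releasing carrier proteins into the fluid. The lateral ventricle's plexus is attached along the fimbria, at the edge of the hippocampus. The ependyma is the ciliated cell layer that lines the ventricles, and its beating cilia move the fluid. Transthyretin, the product of Ttr, carries thyroid hormone and, with retinol binding protein, retinol, and the choroid plexus is its main source in brain.

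Upstream sequences were available for 27 of the 38 genes, as RefSeq windows of 300 bases on GRCm38.p6 that run from 250 bases before to 50 bases after a start site. They were searched on both strands for TAATCC, the core bound by OTX homeodomain proteins, and for GTTGCC, one arm of the X-box bound by the RFX factors of ciliated cells, words that cannot share bases. TAATCC was found in 4 of the 27 genes (14.8%) and in 8.14% of all 27025 genes with a window. GTTGCC was found in 6 of the 27 genes (22.2%) and in 14.1% of all genes. These are matches of letters and not measured binding sites. The matches of Steap1, Ace and Mfrp are not shown. Otx2 also had TAATCC, and GTTGCC at another site, in further windows, which are not shown either. Stretches upstream of the start site are shown for 4 of the epithelial genes with a match and for both ciliary genes with one. They are Aqp1 (chr6:55336148-55336233, plus strand), Kcne2 (chr16:92292240-92292325, plus strand), Otx2 (chr14:48667645-48667725, minus strand), Abca4 (chr3:122044362-122044447, plus strand), Dynlrb2 (chr8:116504924-116505009, plus strand) and Ccdc153 (chr9:44240485-44240570, plus strand). Capitals mark the searched word or its reverse complement, which for Abca4 is TAATCC and for the others GTTGCC.
Aqp1: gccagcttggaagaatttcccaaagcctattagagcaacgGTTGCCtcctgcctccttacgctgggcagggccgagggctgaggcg
Kcne2: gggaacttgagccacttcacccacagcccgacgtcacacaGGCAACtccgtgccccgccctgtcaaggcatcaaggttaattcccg
Otx2: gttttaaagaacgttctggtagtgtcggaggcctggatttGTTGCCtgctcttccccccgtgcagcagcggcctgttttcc
Abca4: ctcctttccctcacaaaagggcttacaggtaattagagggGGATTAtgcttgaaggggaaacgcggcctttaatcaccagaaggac
Dynlrb2: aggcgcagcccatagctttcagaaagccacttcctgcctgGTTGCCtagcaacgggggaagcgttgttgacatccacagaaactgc
Ccdc153: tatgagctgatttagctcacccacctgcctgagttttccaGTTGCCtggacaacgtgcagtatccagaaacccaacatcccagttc

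Ttr had the widest spread of all the listed genes. Its probe set with the highest mean gave log2 values of 8.54, 8.57, 13.39 and 8.90 in control 1 to control 4 and 12.05, 7.67, 13.12 and 13.26 in RA 1 to RA 4. Control 3, RA 1, RA 3 and RA 4 were high, the other 4 arrays were low, and no array lay in the gap of 3.15 log2 units between them. The highest array was 52.7-fold above the lowest, a range of 5.72 log2 units. The control mean was 9.85 ± 2.37 (SD, n = 4) and the RA mean 11.53 ± 2.63 (SD, n = 4). The difference of 1.68 ± 1.70 (SE, limma) had a 95% interval from -2.39 to 5.74, and a 2-sided exact permutation test gave p = 0.486, where 4 arrays against 4 allow no p below 0.0286. The 4 Ttr probe sets differed little from one another, with log2 fold changes from 1.68 to 1.91 and the same 4 arrays high in each. Of these probe sets, 3 carry the suffix _x_at or _s_at, given to sets whose probes may also match other transcripts.

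**Figure D1:**
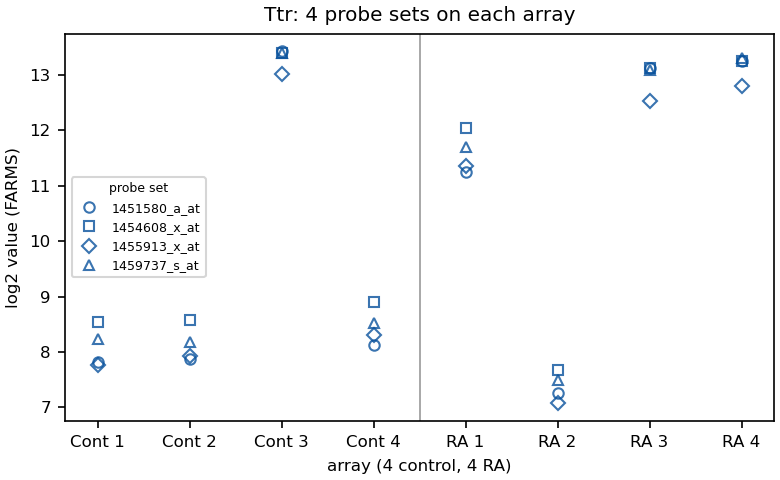
Log2 values of the 4 Ttr probe sets on each of the 4 control and 4 RA arrays, with 1 marker shape per probe set and no error bar, since each point is 1 array. Control 3, RA 1, RA 3 and RA 4 lie high on every probe set, and control 1, control 2, control 4 and RA 2 lie low.

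For all 32 measured genes the SD of the control group was larger than the difference between the group means. The range over the 8 arrays ran from 0.40 log2 units for Rarres2 to 5.72 for Ttr, with a median of 1.78, against a median of 0.55 for all measured probe sets. Control 3 was the highest array for 29 of the 32 measured genes, RA 4 for 2 and RA 1 for 1. RA 4 took the second place for 26, RA 3 took the third for 25 and RA 1 the fourth for 21. The lowest array was control 2 for 12 genes, RA 2 for 9, control 4 for 7 and control 1 for 4. With Ttr itself counted, 23 of the 32 genes (71.9%) had the 4 highest arrays of Ttr, while 4.02% of all measured probe sets had them. The wide gap of Ttr was not shared, since the 4th and 5th highest arrays lay 3.15 apart in Ttr and at most 0.81 apart in the other genes. Control 3, RA 3 and RA 4 were above the other 5 arrays in 28 of the 32 genes. Folr1 had the full order of Ttr over all 8 arrays. Its 4 lowest arrays read 5.27 to 5.38, under the median of 5.83 for all probe set means, most of them unmeasured. Where values lay this low, the order among the low arrays is not read as a difference, and the counts of lowest arrays only describe it. In some genes RA 1 itself read under 5.83 and little above the next array. The gap was 0.029 in Wfdc2, 0.11 in Aqp1, 0.13 in Slc4a5 and 0.16 in Tmem72. Their part in the count of 23 rests on such an order. In bulk tissue, more cells of a type and more RNA per cell cannot be told apart, so these values do not say which of these differed between arrays. Because the arrays stood in separate clusters and the list shares the same 8 arrays, no correlation is given.

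**Figure D2:**
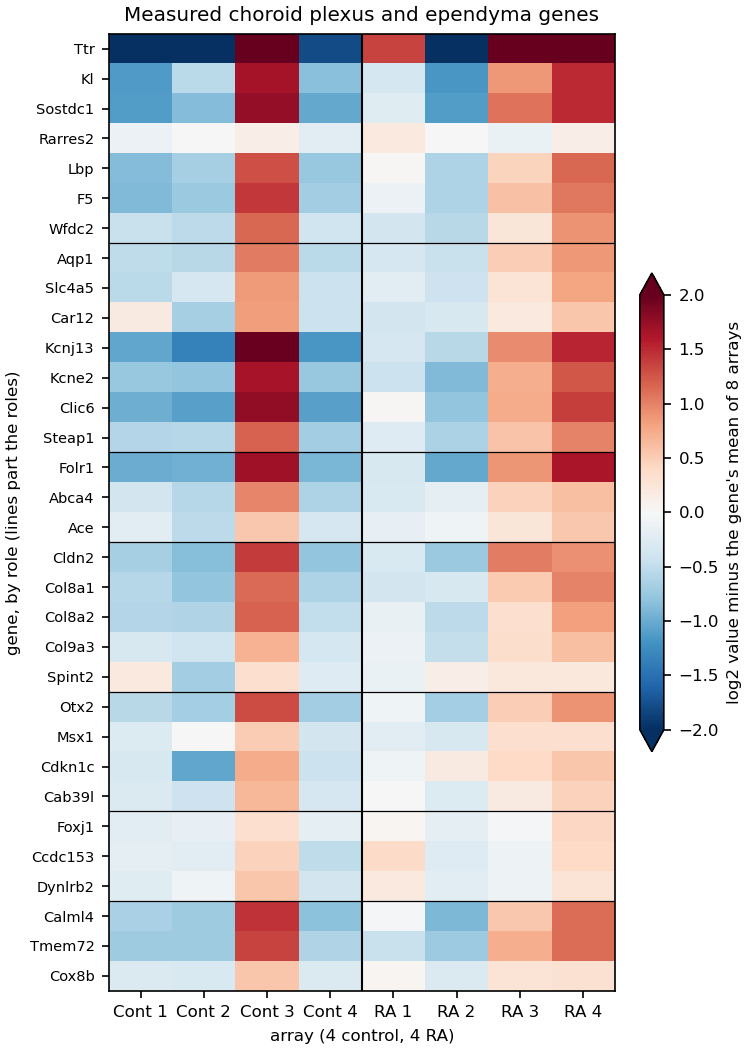
Log2 value of each of the 32 measured genes on each array, minus the gene's mean over the 8 arrays, with genes grouped by role between the horizontal lines and colours capped at -2 and 2, beyond which Ttr lies. Control 3, RA 3 and RA 4 form red columns over most genes, darkest for control 3 and palest for RA 3, and control 1, control 2, control 4 and RA 2 form blue ones.

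Against this spread, RA feeding was compared with the control diet. The mean was higher in the RA group for all 32 measured genes, with a median log2 fold change of 0.30, or 0.28 over the 35 genes with a probe set. The same lean was present outside the list, where 73.1% of all measured probe sets had a higher RA mean, with a median of 0.069, and the median of all probe sets was 1.74e-05. The rank product, which ranks every pairwise difference between the groups and is the test the study named, called 23 of the 32 genes higher in the RA group and 0 lower. In simulated data made with the spread of these probe sets it also called unchanged ones. Their share was near the share of all probe sets called here in both directions together. Its threshold is thus not read as an error rate, nor the 23 calls as evidence of a difference. The rank product called 0.915% of all probe sets higher and 0.577% lower, and among the measured probe sets it called 11% higher. The list stood above that share, but it was drawn up with results of these data known and the count is a description. Standing above it was not particular to this list. Of the meningeal fibroblast genes described below 6 of 11 were called higher and of the thalamus genes 5 of 7, against 1 of 10 hippocampal neuron genes. limma called 0 of the 32 genes and 0% of all probe sets at an adjusted p under 0.05. The adjusted p of the listed genes ran from 0.676 to 0.984, and none had an unadjusted limma p under 0.05. Among all 45037 probe sets 4553 had one, which is more than the 3758 measured probe sets. Some of them thus belong to unmeasured probe sets, so this is not a count of differing genes. The values of the groups overlapped in all 32 genes, while 5.59% of all measured probe sets had no overlap.

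The count of 23 depended on single arrays, and so did the 412 calls of higher values over all probe sets. Without control 3, the array with the highest values, 29 listed genes and 404 probe sets in all were called higher, and the median log2 fold change of the measured genes was 0.74. Without RA 4 the counts were 3 listed genes and 22 probe sets in all, with a median of 0.064. Without RA 3 they were 3 and 37, with a median of 0.18, and without RA 1 they were 2 and 13, with a median of 0.44. Each RA array left out thus lowered the calls in the whole table, RA 2 included, with 16 listed genes and 44 probe sets. Without control 2 the counts were 10 and 227, without control 4 they were 14 and 474, and without control 1 they were 22 and 956. When the rank product was run on the measured probe sets alone, a choice made after the values were seen, it called 4 probe sets higher, which were the 4 probe sets of Ttr. The calls of Kcnj13 and Clic6 were kept whichever array was left out, and that of Ttr was kept in all but the fit without RA 1.

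**Figure D3:**
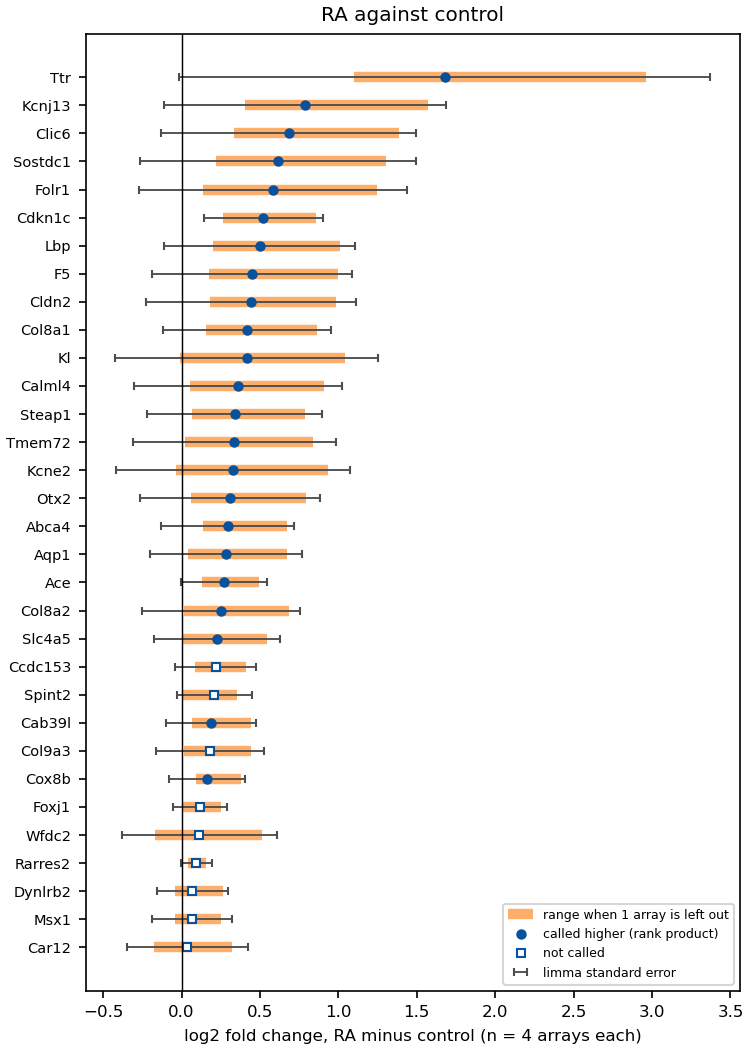
Log2 fold change of each measured gene, RA minus control, with thin bars for the limma standard error (n = 4 arrays a group), orange bars for the range of the value when 1 array was left out, filled points for the 23 genes called higher by the rank product and open squares for the 9 not called. All 32 points lie right of 0, the standard error of every gene but Cdkn1c reaches across 0, and Ttr lies farthest right at 1.68.

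Of the 8 genes for secreted and carrier proteins 7 were measured, 5 were called higher and 6 had the 4 highest arrays of Ttr. Here and below, values are on the log2 scale and each difference is the RA mean minus the control mean with its limma SE. Sostdc1, a secreted antagonist of BMP and Wnt signals, gave 5.45, 5.70, 8.32 and 5.53 in control 1 to control 4 and 6.32, 5.44, 7.65 and 8.05 in RA 1 to RA 4, a difference of 0.62 ± 0.88 (SE). Kl, encoding klotho, a membrane protein that is shed as a hormone, gave 5.67, 6.26, 8.47 and 5.97 in control 1 to control 4 and 6.45, 5.64, 7.67 and 8.29 in RA 1 to RA 4, with a difference of 0.42 ± 0.84 (SE). In Sostdc1 and Kl alike, RA 2 was the lowest array by a small margin, and control 3 and RA 4 were both above 8. Lbp, which binds bacterial lipopolysaccharide, had values of 5.70, 5.90, 7.85 and 5.80 in control 1 to control 4 and 6.58, 5.94, 7.01 and 7.71 in RA 1 to RA 4, a difference of 0.50 ± 0.61 (SE). F5, coagulation factor V, had 5.22, 5.37, 7.53 and 5.41 in control 1 to control 4 and 5.99, 5.48, 6.69 and 7.16 in RA 1 to RA 4, with a difference of 0.45 ± 0.64 (SE). Both left control 1, control 2, control 4 and RA 2 within a narrow band below RA 1. Wfdc2, a secreted protein of epithelia, was not called, and its difference was 0.11 ± 0.50 (SE). RA 1 was only 0.029 above control 4 there, at 5.45 and 5.42, and control 3 and RA 4 read 6.96 and 6.72. Rarres2, the precursor of the chemoattractant chemerin, departed from this array pattern. It gave 6.22, 6.32, 6.47 and 6.12 in control 1 to control 4 and 6.52, 6.32, 6.19 and 6.46 in RA 1 to RA 4, with RA 1 highest, control 4 lowest and a difference of 0.093 ± 0.10 (SE), which was not called.

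Of 8 genes for water, ion and bicarbonate transport 7 were measured, 6 were called higher and 6 had the 4 highest arrays of Ttr. Kcnj13, an inwardly rectifying potassium channel of the plexus, had the widest range after Ttr, 3.32 log2 units, with 5.82, 5.51, 8.83 and 5.70 in control 1 to control 4 and 6.52, 6.30, 7.81 and 8.38 in RA 1 to RA 4. Its difference was 0.78 ± 0.90 (SE), and RA 2 was above control 1, control 2 and control 4. Clic6, of the chloride intracellular channel family, read 5.42, 5.30, 8.17 and 5.31 in control 1 to control 4 and 6.41, 5.61, 7.14 and 7.78 in RA 1 to RA 4, a difference of 0.68 ± 0.81 (SE). Its 2 measured probe sets were both called higher, at 0.68 and 0.22. Kcne2, a potassium channel beta subunit needed for normal transport by the plexus, read 5.06, 5.03, 7.47 and 5.07 in control 1 to control 4 and 5.39, 4.94, 6.54 and 7.07 in RA 1 to RA 4. The 4 lowest Kcne2 arrays lay between 4.94 and 5.07 and held 3 controls and RA 2, and its difference of 0.33 ± 0.75 (SE) came to -0.033 without RA 4. Aqp1, the water channel of the apical membrane whose upstream stretch is printed above, gave 5.18, 5.13, 6.73 and 5.15 in control 1 to control 4 and 5.35, 5.24, 6.18 and 6.55 in RA 1 to RA 4, a difference of 0.28 ± 0.49 (SE). Slc4a5, a sodium bicarbonate cotransporter, gave 5.14, 5.35, 6.53 and 5.24 in control 1 to control 4 and 5.47, 5.27, 5.96 and 6.46 in RA 1 to RA 4, with a difference of 0.23 ± 0.40 (SE). Both again put control 3 and RA 4 at the top. Steap1, of a family of metalloreductases, had 5.40, 5.42, 7.16 and 5.30 in control 1 to control 4 and 5.73, 5.36, 6.56 and 6.98 in RA 1 to RA 4, a difference of 0.34 ± 0.56 (SE). Car12, a membrane-bound carbonic anhydrase, was not called and had 7.12, 6.28, 7.78 and 6.50 in control 1 to control 4 and 6.57, 6.62, 7.14 and 7.50 in RA 1 to RA 4. Control 1 took the place of RA 1 among its 4 highest arrays, its difference was 0.036 ± 0.39 (SE), and its other measured probe set had a difference of -0.020.

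Of 5 genes for receptors, vitamin uptake and surface enzymes 3 were measured, all 3 were called higher and 1 had the 4 highest arrays of Ttr. Folr1, the folate receptor through which the plexus passes folate into the cerebrospinal fluid, read 5.30, 5.34, 7.99 and 5.38 in control 1 to control 4 and 5.97, 5.27, 7.18 and 7.92 in RA 1 to RA 4. Its high arrays reached 7.18 to 7.99 and RA 1 stood alone between them and the rest, and the difference was 0.58 ± 0.85 (SE). Abca4, a retinoid and lipid transporter best known from photoreceptors, read 5.68, 5.47, 7.03 and 5.42 in control 1 to control 4 and 5.74, 5.88, 6.51 and 6.66 in RA 1 to RA 4, with a difference of 0.29 ± 0.42 (SE). Ace, the angiotensin converting enzyme, read 6.28, 5.96, 7.03 and 6.16 in control 1 to control 4 and 6.32, 6.41, 6.74 and 7.04 in RA 1 to RA 4, with a difference of 0.27 ± 0.27 (SE). In these last 2 genes RA 2 was above RA 1.

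Of 6 genes for junctions, matrix and the epithelial surface 5 were measured, 3 were called higher and 3 had the 4 highest arrays of Ttr. Cldn2, the claudin that makes tight junctions of the plexus permeable to cations and water, gave 5.43, 5.24, 7.48 and 5.30 in control 1 to control 4 and 5.77, 5.34, 7.10 and 7.0 in RA 1 to RA 4, a difference of 0.44 ± 0.67 (SE). Here RA 3 stood just above RA 4. Col8a1 and Col8a2 encode the chains of type VIII collagen. Col8a1 read 5.31, 5.09, 7.01 and 5.26 in control 1 to control 4 and 5.51, 5.56, 6.41 and 6.87 in RA 1 to RA 4, with a difference of 0.42 ± 0.54 (SE), and Col8a2 read 5.49, 5.47, 7.25 and 5.58 in control 1 to control 4 and 5.92, 5.55, 6.41 and 6.90 in RA 1 to RA 4, with a difference of 0.25 ± 0.50 (SE). Both were called higher, although in Col8a1 RA 2 was above RA 1 by 0.049. Col9a3, a chain of type IX collagen, was not called, with 6.18 to 7.27 on control arrays and 6.10 to 7.17 on RA arrays, a difference of 0.18 ± 0.34 (SE). Spint2, a membrane-bound inhibitor of serine proteases, was not called either, with 7.33 to 8.36 on control arrays and 7.90 to 8.24 on RA arrays, a difference of 0.21 ± 0.24 (SE).

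Of 5 genes for transcription factors and growth regulators 4 were measured, 3 were called higher and 2 had the 4 highest arrays of Ttr. Otx2, the homeodomain factor that the choroid plexus needs to form and to be maintained, gave 5.14, 5.03, 7.01 and 5.0 in control 1 to control 4 and 5.61, 5.01, 6.20 and 6.60 in RA 1 to RA 4, a difference of 0.31 ± 0.57 (SE). Its 4 lowest arrays lay between 5.0 and 5.14, and control 3 stood 2.0 log2 units above the lowest of them. Cdkn1c, an inhibitor of cyclin-dependent kinases expressed in cells that leave the cell cycle, gave 6.26, 5.55, 7.33 and 6.15 in control 1 to control 4 and 6.49, 6.76, 6.99 and 7.14 in RA 1 to RA 4. Its difference of 0.52 ± 0.38 (SE) had the lowest limma adjusted p of the list, 0.676, all 4 RA arrays were above 3 of the 4 controls, and control 3 was above them all. Cab39l, a scaffold of the kinase LKB1, had 7.03, 6.90, 7.99 and 6.99 in control 1 to control 4 and 7.32, 7.06, 7.50 and 7.79 in RA 1 to RA 4, a difference of 0.19 ± 0.29 (SE). Msx1, a homeobox gene of the dorsal midline, was not called, at 6.06 to 6.94 on control arrays and 6.10 to 6.76 on RA arrays, with a difference of 0.067 ± 0.25 (SE).

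All 3 ciliary genes of the list were measured and none was called. Their ranges over the arrays, 0.63 to 0.97 log2 units, were narrow beside those of the transport genes (1.38 to 3.32). Such ranges were not particular to them, since Rarres2 (0.40), Cox8b (0.86) and Msx1 (0.88) had similar or smaller ones. Foxj1, the master regulator of motile cilia, gave 5.92, 5.97, 6.47 and 5.96 in control 1 to control 4 and 6.18, 5.95, 6.12 and 6.55 in RA 1 to RA 4, a difference of 0.12 ± 0.17 (SE). Ccdc153, a coiled-coil gene of ciliated cells, gave 5.89, 5.85, 6.53 and 5.56 in control 1 to control 4 and 6.45, 5.80, 5.97 and 6.47 in RA 1 to RA 4, a difference of 0.22 ± 0.26 (SE). Dynlrb2, a dynein light chain, gave 5.90, 6.06, 6.71 and 5.79 in control 1 to control 4 and 6.34, 5.92, 6.05 and 6.42 in RA 1 to RA 4, a difference of 0.069 ± 0.23 (SE). Control 3 and RA 4 were the 2 highest arrays in all of them, as in most of the plexus genes. The next array was RA 1 and not RA 3, and RA 1 was above RA 3 in all 3 ciliary genes, against 1 (Rarres2) of the 29 other measured genes. This ordering was noticed after the values were seen and has no test.

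The remaining 3 epithelial genes were measured, were called higher and had the 4 highest arrays of Ttr. Calml4, a calmodulin-like protein of the brush border, gave 5.53, 5.47, 7.63 and 5.37 in control 1 to control 4 and 6.17, 5.28, 6.72 and 7.29 in RA 1 to RA 4, a difference of 0.36 ± 0.66 (SE). Tmem72, a transmembrane protein, gave 5.26, 5.26, 7.32 and 5.37 in control 1 to control 4 and 5.53, 5.24, 6.70 and 7.09 in RA 1 to RA 4, a difference of 0.34 ± 0.65 (SE). Cox8b, a subunit of cytochrome c oxidase, gave 5.50, 5.48, 6.35 and 5.49 in control 1 to control 4 and 5.83, 5.51, 6.06 and 6.09 in RA 1 to RA 4, a difference of 0.16 ± 0.24 (SE). Control 3 was the highest array in each, and RA 2 was among the 4 lowest.

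Defining markers of choroid plexus epithelium, namely Ttr, Folr1, Kl, Clic6, Kcne2, Otx2, Aqp1, Cldn2, Sostdc1 and Slc4a5, were all measured. They belong to the list, so that their values are no separate evidence for its name, and among the other listed genes Car12, Spint2, Msx1, Rarres2 and Dynlrb2 were neither called nor had the 4 highest arrays of Ttr. Of 8 ependyma markers all were measured, 6 had these 4 arrays highest and 1, Ak7, was called higher. Among them Foxj1, Ccdc153 and Dynlrb2 belong to the list too and are no separate evidence. The other ependyma markers come from 27 further genes listed for the ciliated ependyma, not all of them genes of cilia, of which only 9 were measured. For the label of hippocampus, 5 markers of its neurons were looked at, Prox1, Wfs1, Fibcd1, Spink8 and Neurod6. All were measured, which says only that their values varied over the arrays and is no test of the label. Their control means ran from 6.93 to 9.18. Neurod6 had log2 values from 7.92 to 9.82 and was the 1 marker of the 5 called lower in the RA group.

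Further genes of the same tissues shared the array pattern of Ttr in part. Of 26 further choroid plexus genes 22 were measured, 9 were called higher and none lower, and 7 had the 4 highest arrays of Ttr, with a median log2 fold change of 0.19. Ecrg4, a secreted peptide precursor, had the widest range among them, 3.24 log2 units, with a difference of 0.80 ± 1.0 (SE) on the probe set with its highest mean. Krt18, a keratin of simple epithelia, had a difference of 0.38 ± 0.69 (SE). Others had RA 2 high as well: Igf2, a growth factor, read 8.74 there, and Slc13a4, a sulfate transporter, had its highest value, 7.93, on RA 2. Ptgds, prostaglandin D synthase, which is also abundant in meninges, was highest on RA 2 at 12.95 and lowest on control 3 at 10.96. Of 27 further ciliated ependyma genes 9 were measured, 2 (Ak7 and Cfap126) were called higher and 7 had the 4 highest arrays of Ttr. In 5 of the 9, namely Tmem212, Ak7, Tekt1, Cfap52 and Vim, RA 1 was above RA 3.

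Of 14 partners of transthyretin in retinol and thyroid hormone transport 11 had a probe set, 5 were measured and 1 was called. That gene, Rdh5, a retinol dehydrogenase, read 5.41, 5.36, 7.01 and 5.40 in control 1 to control 4 and 5.86, 5.49, 6.38 and 6.75 in RA 1 to RA 4, the array pattern of Ttr. Rbp4, the retinol carrier that binds transthyretin, had the opposite extremes, with control 3 lowest at 6.40 and RA 2 highest at 7.07. Slco1c1, a thyroid hormone transporter, was highest on control 3 at 9.05 and was not called.

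Markers of other cell types that a hippocampal dissection can hold had other orders of the arrays. Their calls stand beside the 11% of all measured probe sets called higher. Of 14 meningeal fibroblast genes 11 were measured, 6 were called higher, and none had the 4 highest arrays of Ttr. Their mean log2 value was 6.34 to 6.83 on control arrays and 6.50 to 7.50 on RA arrays, with RA 2 highest and control 3 lowest, the array at the top of the plexus genes. Fmod, fibromodulin, spanned this order from 5.78 on control 3 to 8.40 on RA 2. Of 10 thalamus genes 7 were measured and 5 called higher, among them Zic1, with RA 1 at 8.63 and RA 4 at 8.22, and their mean was highest on RA 2 and RA 1. Of 10 endothelial genes 3 were measured and 1, Flt1, was called higher. Of 12 hippocampal neuron genes 10 were measured, 1 was called higher and 3 lower, and RA 2 and control 1 had the lowest means. Dsp, desmoplakin, which marks granule cells, read 5.36 on control 1 and 5.67 on RA 2 and 6.80 to 7.59 on the other arrays. What part these shifts had in the differences of the plexus genes was not tested.

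**Figure D4:**
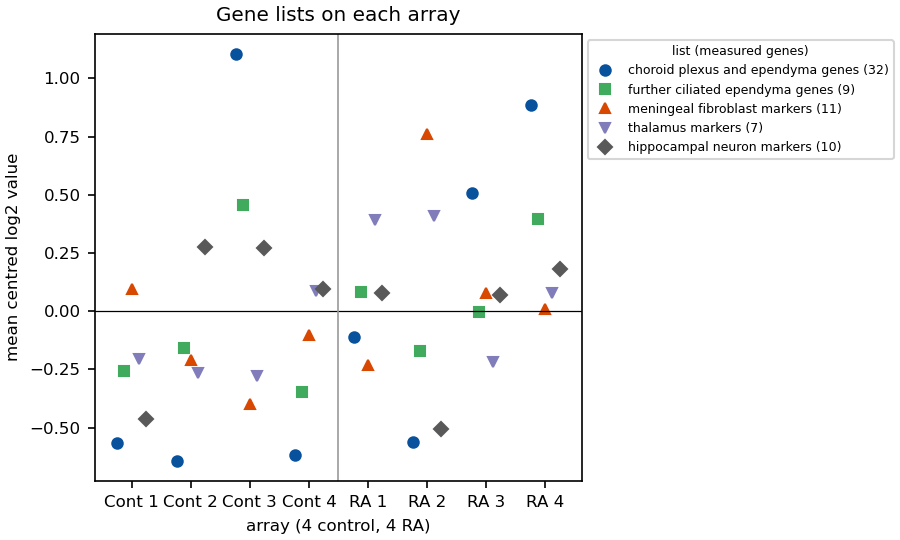
Mean over the measured genes of a list of the log2 value minus the gene's own mean over the 8 arrays, for each array, with 1 marker per list and the number of measured genes in brackets. The choroid plexus and ependyma genes lie highest on control 3, RA 4 and RA 3, the meningeal and thalamus markers are highest on RA 2, and the hippocampal neuron markers are lowest on control 1 and RA 2.

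Outside the list, 95 genes had the same 4 highest arrays as Ttr, and 17 of them belong to the lists above. The 10 with the widest gap below these 4 arrays were Ecrg4, Krt18, Rdh5, Mia, Taok1, Tmem98, Prdm16, Ak7, Prr32 and 1700094D03Rik. Ecrg4 had the widest gap, 1.27 log2 units on another of its probe sets, with 9.37 on control 3, 9.10 on RA 4, 8.49 on RA 3 and 6.74 on RA 1 against 5.33 to 5.47 on the other arrays. Taok1, a kinase, had this pattern on 1 of its 2 measured probe sets, with 7.59 on control 3, and a mean difference of 0.044 ± 0.71 (SE). Prdm16, a transcriptional regulator, and Mia had RA 4 as the highest array, and the other 8 of the 10 had control 3. The set of 4 arrays itself was the 7th most frequent of the 70 possible sets among measured probe sets, with 151 probe sets, of which 31 belong to the listed genes, and the most frequent had 423.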

How the data were processed

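Hippocampal RNA of 4 control and 4 RA samples was hybridised to Affymetrix mouse arrays. The authors summarised the probes with FARMS in R 2.10.1, and what they deposited, 1 log2 value for each probe set and array, was used here without further scaling. FARMS draws probe sets without shared probe signal to a constant, so an SD of at most 0.01 was taken as unmeasured. The number of arrays limits the precision. Of the arrays' probe sets, 64 manufacturer controls were left out. Gene symbols came from the platform's annotation and were brought up to date with GRCm38.p6 gene tables.

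The rank product was run over all 45037 probe sets (Python 3.11.15), permuting each array's values 100 times, and a probe set was called at an estimated share of false positives under 0.05. limma 3.58.1 in R 4.3.3 gave each log2 fold change with its standard error, with p-values adjusted after Benjamini and Hochberg over all probe sets. Both were tested on simulated data. Ttr alone had an exact permutation test.

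Per gene, the probe set with the highest mean among the measured ones was used. All array values are given for the 12 listed genes with the widest range and for those called. From outside the list, the 10 genes with the widest gap below the 4 highest arrays of Ttr are named, some with part of their values. The listed genes, the other lists and the tests were chosen with earlier results of these data known. The alternatives were other scalings, filters, thresholds and tests, a replicate block, other choices of probe set, and leaving out each array.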

Additional observations from a re-analysis of the deposited data

Results flagged for a closer look

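Control 3 stood apart from the other control arrays in 23 of the 64 groups looked at, the control and RA groups of the 32 measured genes, and it was the highest array each time. The share of the control group's range taken by the gap between control 3 and the next array was above Dixon's critical value for 4 samples, which chance exceeds in about 1 of 20 groups. The shares are not independent, since all come from the same 4 arrays. Among secreted proteins the share was 0.925 for Ttr, 0.913 for Sostdc1, 0.905 for Lbp, 0.919 for F5 and 0.930 for Wfdc2. Among transport genes it was 0.972 for Aqp1, 0.853 for Slc4a5, 0.906 for Kcnj13, 0.982 for Kcne2, 0.958 for Clic6 and 0.938 for Steap1. It was 0.969 for Folr1 and 0.839 for Abca4, 0.916 for Cldn2, 0.889 for Col8a1, 0.937 for Col8a2 and 0.941 for Col9a3. It was 0.931 for Otx2, 0.883 for Cab39l, 0.899 for Foxj1, 0.928 for Calml4, 0.945 for Tmem72 and 0.977 for Cox8b. No group of RA arrays had such an array, since RA 3 and RA 4, and in many genes RA 1, were spread over the upper range.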

How the results depend on the processing

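The 23 listed genes called higher became 22 after quantile normalization, and 23 after subtraction of array medians, which leaves the rank product unchanged by construction, or with any probe set of a gene. The count was 10 with probe sets of low mean left out, 1 with measured probe sets only, which was chosen after the values were seen, and 0 with the rank sum, where the calls of higher values over all probe sets went from 412 to 48, 4 and 109. It was 5 at a threshold of 0.01 and 0 with limma. Leaving out 1 array at a time gave 2 to 29, with 13 to 956 over all probe sets. No listed gene was called lower under any of these settings. With the replicate block, in which only arrays of the same number were compared, the count was 6, with 59 over all probe sets. Deviations of arrays of the same number from their group means correlated at -0.122, -0.328, 0.448 and -0.393 for numbers 1 to 4. The labels do not say whether the numbers pair the samples, and these correlations cannot settle it. The cause of these changes was not tested.

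The log2 fold change of Ttr ran from 1.10 to 2.96 when 1 array was left out and kept its direction under every alternative tried. Of the 32 measured genes, 26 kept their direction in all fits without 1 array. The ranges over these fits that crossed 0 were -0.011 to 1.04 for Kl, -0.17 to 0.51 for Wfdc2, -0.18 to 0.32 for Car12, -0.033 to 0.93 for Kcne2, -0.045 to 0.25 for Msx1 and -0.041 to 0.27 for Dynlrb2. The lowest adjusted p of any listed gene in any limma fit was 0.223. The count of 23 genes with the 4 highest arrays of Ttr was 23 under the 4 alternatives tried for it. Signal limits what can be said of Lmx1a, Perp and Trpv4.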
